A study of Homo sapiens with 12 samples.

Results

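The mRNAs of 7 proteins that shed and cleave type I membrane receptors were followed in melanoma cells that re-express the receptor tyrosine kinase TYRO3. The 7 genes were the ADAM proteases ADAM10 and ADAM17 and the gamma-secretase subunits NCSTN (nicastrin), APH1A, APH1B, PSENEN (PEN-2) and PSEN2 (presenilin 2). They were taken by name as proteases that cleave TYRO3, and earlier results of these data were known when they were chosen. All 7 were among the 35579 genes with summed estimated counts. The files list 81 transcripts of these genes among 188753. All 12 libraries came from the established human melanoma line WM-266-4, in cells with a stable lentiviral knock-down of TYRO3, transfected with a pEZY-myc-his plasmid and starved of serum overnight before the RNA was extracted. The plasmid carried GFP (the control), wild-type TYRO3 (WT), TYRO3 with the substitution I449A (ΔGS) or TYRO3 with the substitutions P408A, L409P and G419P (ΔADAM). The study's text describes the control as an empty vector, whereas the sample labels name GFP. Each of the 4 groups was sequenced once in each of 3 experiments. Whether the knock-down cells derive from 1 clone is not given in the sources used here, and the TYRO3 groups differ from the control both in TYRO3 and in the GFP that they lack.

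Shedding of a receptor takes place in steps. ADAM10 or ADAM17 (TACE), zinc metalloproteases at the cell surface, cut the extracellular part close to the membrane, and gamma-secretase then cuts the remaining stub inside the membrane and releases the intracellular domain. Gamma-secretase is a complex of a catalytic presenilin, nicastrin, which receives the substrate, an APH-1 scaffold (APH1A or APH1B) and PEN-2, which completes the maturation of presenilin. The ΔADAM and ΔGS substitutions in TYRO3 were made to block the extracellular and the intramembrane cut. The data on the 7 genes address whether the mRNAs of the proteases themselves differ between cells with cleavable, cleavage-resistant or no exogenous TYRO3. Protein level and protease activity were not measured in these libraries.

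The coding sequences of the substituted stretches of TYRO3 and of the active sites of the proteases were taken from GENCODE 29 (GRCh38) and are shown here 5′ to 3′ because they are what the ΔADAM and ΔGS constructs change and what the measured mRNAs encode. In TYRO3-201, codons 402 to 424 (chr15:41568974-41570046, plus strand, over an intron) hold the ΔADAM substitutions and codons 439 to 458 (chr15:41570089-41570148) the ΔGS substitution. Capitals mark the codons with the numbers that the labels give, which are codons 408, 409 and 419 for ΔADAM and codon 449 for ΔGS.
TYRO3 around the ADAM sites: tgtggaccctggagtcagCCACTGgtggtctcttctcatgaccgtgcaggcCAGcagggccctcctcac
TYRO3 around the gamma-secretase site: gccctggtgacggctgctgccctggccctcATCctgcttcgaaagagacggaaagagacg
The reference codons at 408, 409 and 449 encode the first residue named in P408A, L409P and I449A. The reference codon 419 does not encode glycine, the first residue of G419P, and the nearest glycine codon is codon 418. In the next sequences, capitals mark the codons of the histidines and the glutamate of the zinc-binding site of the ADAM proteases, and the codon of a catalytic aspartate of PSEN2.
ADAM10 zinc-binding site: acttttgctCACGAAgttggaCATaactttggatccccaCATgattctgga
ADAM17 zinc-binding site: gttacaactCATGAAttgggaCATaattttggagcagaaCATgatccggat
PSEN2 active site: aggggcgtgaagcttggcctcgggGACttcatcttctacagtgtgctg
These are codons 380 to 396 of ADAM10-201 (chr15:58627872-58633234, minus strand, over an intron), codons 402 to 418 of ADAM17-201 (chr2:9510069-9510119, minus strand) and codons 391 to 406 of PSEN2-201 (chr1:226891844-226894053, plus strand, over an intron). The coding sequences have 748 codons in ADAM10-201, 824 in ADAM17-201, 709 in NCSTN-201, 101 in PSENEN-201, 257 in APH1B-201 and 481 in PSEN2-201. PSEN2-202 (69.4% of the counts of PSEN2, against 13.2% for PSEN2-201) has 448 codons, and PSENEN-203 (43.9% of those of PSENEN) has 97. The codon numbers given for PSEN2 hold for PSEN2-201 only.

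The shallowest library, GFP of experiment 1, held 4008293 estimated counts and the deepest, GFP of experiment 2, 38184838. The other 10 lay between these, from 18365999 upwards, and the median of all 12 was 23302002. TYRO3 mRNA, as a check of the labels, was between 47.4 and 56.7 CPM (counts per 1e6 counts, scaled by TMM) in the GFP libraries and between 1181 and 3691 CPM in the libraries with TYRO3 plasmids. This separates GFP from TYRO3 plasmids and does not tell WT, ΔGS and ΔADAM apart. TYRO3 mRNA also differed by experiment. It was 3060, 3691 and 3280 CPM with WT, ΔGS and ΔADAM in experiment 1, and between 1181 and 1791 CPM in the TYRO3 libraries of experiments 2 and 3. The part of this difference in results that rest on experiment 1 was not tested. In bulk RNA, fewer cells of a kind and less RNA per cell cannot be told apart. All 8 melanoma markers (MITF, SOX10, MLANA, PMEL, TYR, DCT, S100B and S100A1) were detected, with a summed level of 1740 to 2120 TPM (transcripts per 1e6 transcripts) with GFP, 1120 to 2120 with WT, 1160 to 1700 with ΔGS and 1170 to 1760 with ΔADAM, and 2 of the 8, MITF and DCT, were lower in all TYRO3 groups against GFP (edgeR adjusted p = 0.0162 and 0.0205). These calls were lost without the GFP library of experiment 1 (edgeR adjusted p = 0.171 for MITF and 0.205 for DCT), without the batch term (0.0976 and 0.177) and in experiments 2 and 3 alone (0.306 and 0.365). That of DCT was also lost without the GFP library of experiment 3 (0.0561) or the ΔADAM library of experiment 1 (0.0562), and that of MITF by limma on log2 TPM (0.0538 and 0.0515 with a pseudocount of 1 and 0.1). Of the markers of other cells, the summed level stayed between 0.2 and 0.831 TPM for 4 keratinocyte genes. For 5 fibroblast genes it was 72.6 to 94.6 TPM with GFP and 47.4 to 75.1 TPM with TYRO3, with LUM called lower (log2 -0.66, edgeR adjusted p = 0.0222), a call lost without the GFP library of experiment 1 (0.211) or 2 (0.0702), the ΔGS or ΔADAM library of experiment 1 (0.0502 and 0.0557) or the batch term (0.081), and in experiments 2 and 3 alone (0.441). For the 3 blood cell genes PTPRC, CD3E and CD14 it was 0.463 to 3.09 TPM with GFP and 0.306 to 0.929 TPM with TYRO3, and the highest value, in the GFP library of experiment 1, was mostly CD14 (2.94 TPM). Of the 5 fibroblast genes 4 were tested, and 1 of them, COL1A1, had a positive log2 difference (0.43, edgeR adjusted p = 0.569). With a term for each experiment it was 0.40 (edgeR adjusted p = 0.0453). LUM alone was at 36.2 to 84.5 TPM over the libraries, so it made up most of the fibroblast sum. The part of these marker differences in the results was not tested. KRT1, KRT5, CD3E and COL1A2 were below 0.5 TPM in every library. The ΔGS library of experiment 3 stood apart from the others. When log2 CPM values were centred within each experiment, its short mRNAs were high and its long mRNAs low, with a Spearman correlation with transcript length across genes of -0.515, against -0.167 to 0.412 in the other 11 libraries. Genes are not independent replicates, and the part of this trend in the values of the members was not tested. Several results that rest on this library are therefore given with and without it, and others with their range when each library is left out in turn.

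The genes are located, in GRCh38, at chr15:58588807-58749978 on the minus strand (ADAM10), chr2:9488486-9556732 on the minus strand (ADAM17), chr1:160343272-160358952 on the plus strand (NCSTN), chr1:150265399-150269580 on the minus strand (APH1A), chr15:63276018-63309126 on the plus strand (APH1B), chr19:35745114-35747519 on the plus strand (PSENEN) and chr1:226870184-226896105 on the plus strand (PSEN2). Exons of NCSTN overlap exons of COPA on the opposite strand, and the same holds for ADAM17 with IAH1, APH1A with C1orf54 and PSENEN with U2AF1L4. PSENEN also overlaps AD000671.1 on the same strand (0.934 TPM). The library kit marks the strand, but whether the strand was used in the quantification is not given in the sources used here, so reads in these overlaps may be shared between the partners. The mean level of the partner was 185 TPM for COPA, 31.6 for IAH1, 9.98 for U2AF1L4 and 2.5 for C1orf54.

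Levels per length, in TPM, separated the members into abundant, intermediate and scarce mRNAs. APH1A and NCSTN were the most abundant, with means over all 12 libraries of 168 ± 18.4 and 162 ± 13.6 TPM (SD, n = 12), above 94.2% and 93.9% of the 15412 genes tested. APH1A exceeded NCSTN in 7 of 12 libraries, and the TPM ratio of APH1A to NCSTN lay between 0.853 and 1.31, so the levels of these 2 subunits did not differ beyond their spread. ADAM10 came next with 105 ± 21.1 TPM, below both in every library. PSENEN had 69.1 ± 10.0 TPM and ADAM17 54.5 ± 8.37 TPM, and PSENEN was the higher of these 2 in 11 of 12 libraries. PSEN2 had 34.4 ± 3.96 TPM. APH1B was the scarcest in every library with 3.09 ± 0.67 TPM, above 24.8% of the genes tested.

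The 2 sheddases and the 2 APH-1 scaffolds were unequal in summed TPM. ADAM10 exceeded ADAM17 in 12 of 12 libraries on the TPM scale, by 1.35- to 2.39-fold with a median of 1.96-fold. The sum for ADAM10 includes ADAM10-202, annotated as a target of nonsense-mediated decay, with 43.2% of its counts at 2418 bases. The protein-coding ADAM10-201, at 11158 bases, took 42.5%, and ADAM17-201, at 4391 bases, took 74.9% of the counts of ADAM17. Whether the order of the 2 sheddases holds for protein-coding transcripts alone was not tested. APH1B made up between 1.18% and 2.28% of the summed TPM of APH1A and APH1B, with a median of 1.78%, and APH1A exceeded it by at least 42.8-fold. PSEN2 stood between 0.189 and 0.224 of the TPM of APH1A, the narrowest range of ratio for any pair among the 7 genes, and between 0.167 and 0.254 of that of NCSTN. On the CPM scale, which does not correct for length, long mRNAs take more counts, and the order of means was NCSTN, APH1A, ADAM10, ADAM17, PSEN2, PSENEN and APH1B.

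**Figure D1:**
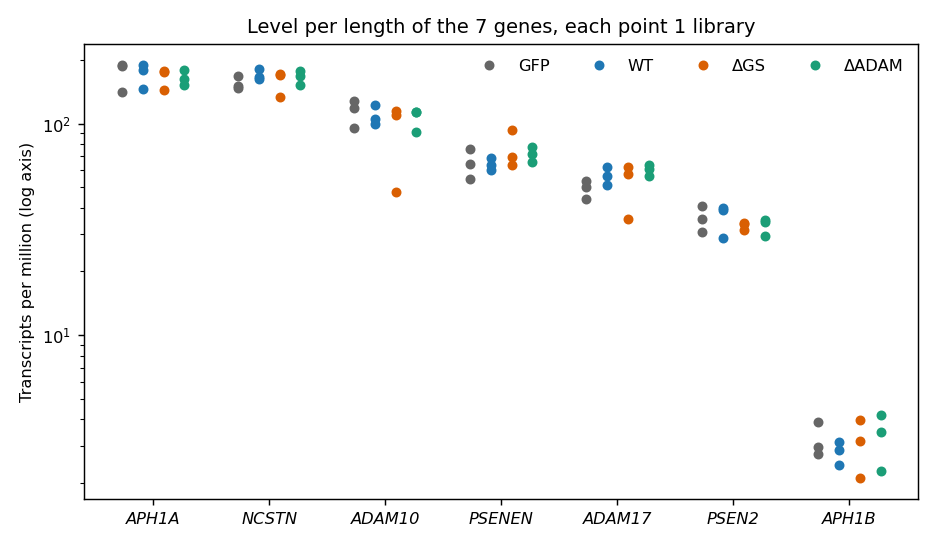
TPM (log axis) of the 7 genes, ordered by their mean, with 1 point per library and 1 colour per group. APH1A and NCSTN overlap at the top, APH1B lies below all others in every library, and the low ADAM10 and ADAM17 points of the ΔGS group are the library of experiment 3.

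ADAM17 was the member with the largest fitted difference from GFP over all TYRO3 groups, with WT and with ΔADAM, while with ΔGS that of PSENEN was larger (log2 0.22 against 0.17). This order with ΔGS rested on the ΔGS library of experiment 3, without which the log2 differences were -0.0079 for PSENEN and 0.30 for ADAM17. The CPM values of ADAM17 were 118, 118 and 108 in the GFP libraries of experiments 1, 2 and 3. They were 155, 122 and 128 with WT, 154, 136 and 103 with ΔGS, and 154, 127 and 153 with ΔADAM. The WT and ΔADAM libraries all lay above the highest GFP library, as did 2 of the 3 ΔGS libraries, and the ΔGS library of experiment 3 lay below the lowest GFP library. Ranges of 3 libraries that do not overlap with GFP were found for 20.5% of all genes tested with WT, 20.7% with ΔGS and 25.4% with ΔADAM.

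In the fit across all genes, ADAM17 was 1.18-fold higher over all TYRO3 groups than with GFP (log2 0.24, SE 0.10, 95% interval 0.02 to 0.46). Its edgeR adjusted p over the 15412 genes was 0.179, so it did not pass the test. The fold was 1.25 with ΔADAM (log2 0.33, SE 0.12, adjusted p = 0.165), 1.17 with WT (log2 0.22, SE 0.12, adjusted p = 0.431) and 1.13 with ΔGS (log2 0.17, SE 0.12, adjusted p = 0.484). These comparisons share the 3 GFP libraries, so their common sign is not independent evidence. Within experiments, 8 of the 9 TYRO3 libraries were above the GFP library of their own experiment. The log2 ratios were 0.38, 0.38 and 0.39 in experiment 1, between 0.05 and 0.20 in experiment 2, and between -0.08 and 0.50 in experiment 3. Over all alternatives the log2 difference between all TYRO3 groups and GFP stayed between 0.18 and 0.30 and the adjusted p between 0.035 and 0.734. The lowest adjusted p came without the ΔGS library of experiment 3, where the log2 difference was 0.28, below the 1.5-fold needed for a call. Without the shallow GFP library of experiment 1 it was 0.19 (adjusted p = 0.553).

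ADAM10 lay close to the GFP level. Its CPM values were 177, 165 and 148 with GFP, 151, 175 and 152 with WT, 160, 161 and 114 with ΔGS, and 150, 163 and 141 with ΔADAM. The ranges of the groups overlapped, and the lowest value was again that of the ΔGS library of experiment 3. The log2 difference between all TYRO3 groups and GFP was -0.10 (SE 0.11, 95% interval -0.34 to 0.14, adjusted p = 0.64), with 7 of the 9 TYRO3 libraries below the GFP library of their experiment. ADAM10 and ADAM17 therefore had fitted differences of opposite sign, and neither passed the test.

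**Figure D2:**
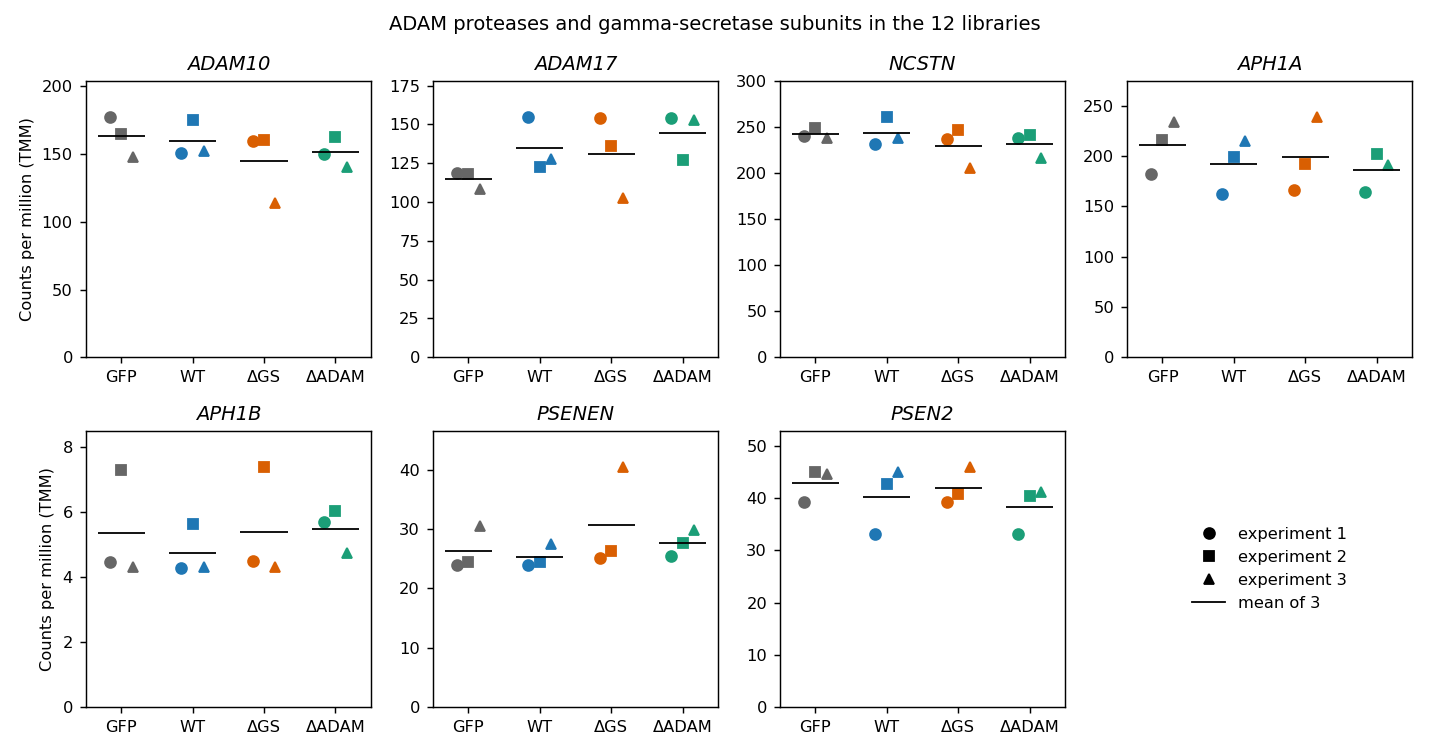
CPM (TMM-scaled) of each gene in each library, by group on the x axis, with 1 symbol per experiment and a line at the mean of 3. The WT and ΔADAM libraries of ADAM17 lie above the 3 GFP libraries, and the triangles of the ΔGS group, experiment 3, are low for ADAM10, ADAM17 and NCSTN and high for PSENEN.

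NCSTN, the substrate receptor of gamma-secretase, was the steadiest of the 7. Its CPM values were 241, 250 and 238 with GFP, 232, 261 and 238 with WT, 238, 247 and 205 with ΔGS, and 239, 241 and 217 with ΔADAM, which gives a coefficient of variation of 6.11% over the 12 libraries. The groups overlapped throughout, and the log2 difference between all TYRO3 groups and GFP was -0.05 (SE 0.08, 95% interval -0.22 to 0.12, adjusted p = 0.777). On the log2 TPM scale the sign was positive (0.08).

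APH1A, the main scaffold, had 182, 216 and 234 CPM with GFP, 162, 199 and 215 with WT, 166, 192 and 239 with ΔGS, and 164, 202 and 191 with ΔADAM. In all groups the value of experiment 1 was the lowest, and 8 of the 9 TYRO3 libraries were below the GFP library of their experiment. The log2 difference over all TYRO3 groups was -0.13 (SE 0.08, 95% interval -0.30 to 0.03, adjusted p = 0.323). Leaving out the ΔGS library of experiment 3 gave the lowest adjusted p among the alternatives, 0.0752.

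APH1B had the fewest counts of the 7 genes. Its estimated counts ran from 17 in the GFP library of experiment 1 to 270 in that of experiment 2, and its CPM values were 4.45, 7.29 and 4.30 with GFP, 4.28, 5.64 and 4.31 with WT, 4.49, 7.38 and 4.29 with ΔGS, and 5.69, 6.01 and 4.73 with ΔADAM. Experiment 2 held the highest value of each group. The log2 difference over all TYRO3 groups was -0.07 with an SE of 0.22 and a 95% interval of -0.55 to 0.42 (adjusted p = 0.905), the widest interval of the 7. Differences of any size within that interval are compatible with the fit, and the part of depth in its width was not tested.

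PSENEN, the smallest subunit, had 23.8, 24.4 and 30.4 CPM with GFP, 24.0, 24.4 and 27.4 with WT, 25.0, 26.3 and 40.5 with ΔGS, and 25.4, 27.6 and 29.8 with ΔADAM. The ΔGS library of experiment 3 exceeded all others, and the remaining 11 libraries lay between 23.8 and 30.4. The log2 difference with ΔGS was 0.22 (SE 0.16, 95% interval -0.13 to 0.57, adjusted p = 0.498), and without that library it was -0.0079. PSENEN has the shortest mRNA of the 7, with a count-weighted length of 783 bases that exceeds 5.19% of genes, and ADAM10 the longest, with 5912 bases, longer than 88.6%. The part of the length trend of this library in these values was not tested.

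PSEN2, the presenilin measured here, had 39.3, 45.0 and 44.7 CPM with GFP, 33.2, 42.7 and 45.0 with WT, 39.3, 40.8 and 46.0 with ΔGS, and 33.1, 40.5 and 41.3 with ΔADAM. The groups overlapped, and 7 of the 9 TYRO3 libraries were below the GFP library of their experiment. The log2 difference over all TYRO3 groups was -0.10 (SE 0.07, 95% interval -0.26 to 0.06, adjusted p = 0.466), and with ΔADAM it was -0.17 (SE 0.09, adjusted p = 0.326).

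Across the design, none of the 7 genes passed the test in any of the 6 comparisons (edgeR quasi-likelihood, fold over 1.5 and adjusted p of at most 0.05). Of all 15412 genes tested, 5 (0.0324%) were called with WT against GFP, 69 (0.448%) with ΔGS, 166 (1.08%) with ΔADAM and 495 (3.21%) over all TYRO3 groups. With so few calls among all genes, a count of 0 of 7 says little about the members. At an unadjusted p under 0.05 the members numbered 0 with WT, 0 with ΔGS, 1 with ΔADAM and 1 over all TYRO3 groups, in both cases ADAM17, whereas 2307, 2910, 3095 and 3672 of all 15412 genes were at that level. DESeq2 gave the same 4 numbers of members. It called 0 of the 7 in each of these 4 comparisons, against 374, 607, 673 and 752 of all 15412 genes. With a replicate block, a term for each experiment, the members called were also 0, against 2.29% of all genes with WT, 4.56% with ΔGS, 5.09% with ΔADAM and 5.52% over all TYRO3 groups. The median absolute log2 difference of the members over all TYRO3 groups was 0.10, against 0.18 over all genes tested, and 61.5% of genes had a smaller absolute difference than ADAM17. These values are not matched for level or SE. The SE of the members ran from 0.07 to 0.22, against a median of 0.14 over all genes. For 0 of the 7 members did the range of the 9 TYRO3 libraries lie apart from that of the 3 GFP libraries, which was the case for 9.97% of genes.

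The 95% intervals set limits on what may have been missed. For ADAM10, NCSTN, APH1A, PSENEN and PSEN2 the interval of each of the 3 comparisons with GFP lay within a 1.5-fold change in either direction. It reached beyond 1.5-fold for APH1B with each construct and, by a small margin, for ADAM17 with ΔADAM, where it ran from 0.06 to 0.59 on the log2 scale.

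**Figure D3:**
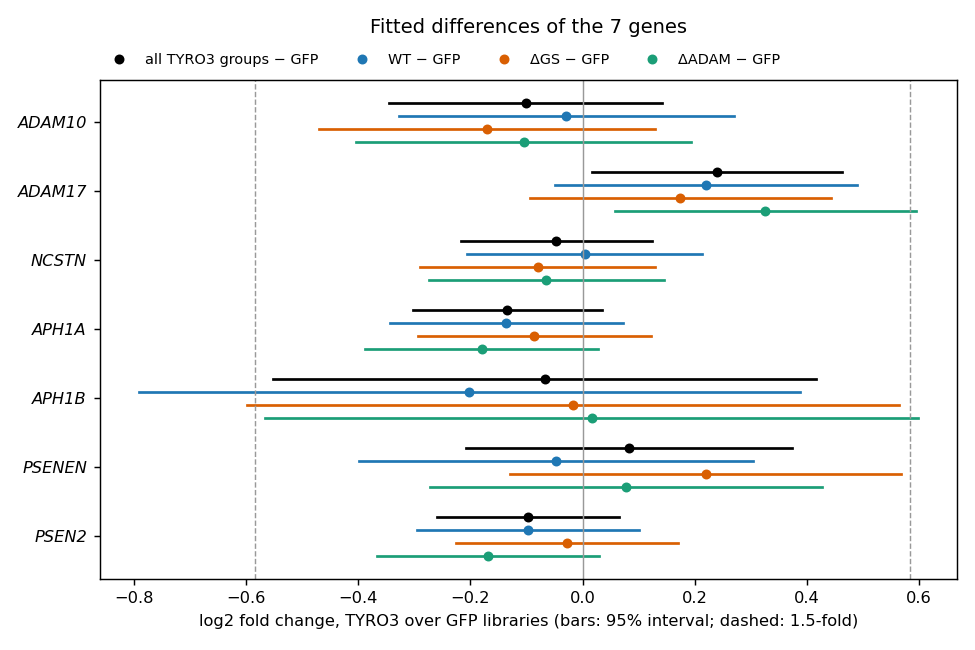
Fitted log2 fold change of each gene (x axis) for all TYRO3 groups and for each construct against GFP, with 95% intervals as bars and dashed lines at 1.5-fold. The ADAM17 points lie to the right of 0, and the intervals of APH1B are the widest.

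Cleavable and cleavage-resistant TYRO3 were then compared. In WT against both variants, 0 of the 7 genes were called, and in ΔGS against ΔADAM 0 as well, with 0 of 15412 genes (0%) called in either comparison by edgeR, with the batch term or the replicate block. At an unadjusted p under 0.05 there were 123 (0.798%) and 127 (0.824%) genes, none of them a member, and DESeq2 called 1 gene in each, not a member. With the replicate block 252 and 228 genes were at that level, none of them a member. With so few genes at that level, a count of 0 of 7 says little on whether the members differ between these groups. The largest member difference in WT against both variants was that of APH1B (log2 -0.20, SE 0.23), followed by PSENEN (-0.20, SE 0.14) and ADAM10 (0.11, SE 0.12). In ΔGS against ΔADAM they were ADAM17 (-0.15, SE 0.12), PSEN2 (0.14, SE 0.09) and PSENEN (0.14, SE 0.15). Without the ΔGS library of experiment 3 the difference of PSENEN between ΔGS and ΔADAM was -0.08. With each library left out in turn, that of ADAM17 ran from -0.23 to -0.03. In WT against both variants, that of PSENEN then ran from -0.26 to -0.09. In each of the 7 genes, groups next to each other in the order of mean CPM had overlapping ranges, so that neighbours in that order did not differ beyond the spread between libraries. Groups further apart in the order could lie apart, as GFP did from WT and ΔADAM for ADAM17.

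The gene totals hide several transcripts per gene. Of the 81 transcripts, 53 were tested among 75827 in the fit per transcript, and 0 of the 53 were called over all TYRO3 groups, against 0.00528% of all transcripts (4 of 75827). At an unadjusted p under 0.05 there were 2 of the 53, against 5709 (7.53%) of all 75827. They were PSENEN-203 (log2 0.41, SE 0.17, adjusted p = 0.645) and ADAM17-206, a retained-intron form at 0 counts in the 3 GFP libraries and the ΔGS library of experiment 1 and at most 31.1 in the others (adjusted p = 0.504). ADAM17-206 is named here after its values were seen. Transcripts with at least 10% of the counts of their gene are described next.

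ADAM10 counts were split evenly between ADAM10-202 (43.2%), annotated as a target of nonsense-mediated decay, and the protein-coding ADAM10-201 (42.5%). ADAM10-201 is listed with 11158 bases in the files (11431 in GENCODE) and ADAM10-202 with 2418, and 181 of the 2388 windows of 31 bases of ADAM10-202 are absent from ADAM10-201, while 9194 of the 11401 windows of ADAM10-201 are absent from ADAM10-202. The share of ADAM10-202 was between 44.4% and 47.4% with GFP and between 29.9% and 46.8% with TYRO3, and the lowest was that of the ΔGS library of experiment 3.

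ADAM17 was mostly ADAM17-201 (74.9%), with 11.2% in ADAM17-203. None of the 4361 windows of 31 bases of ADAM17-201 is absent from ADAM17-203, and only 22 windows tell ADAM17-203 apart. Its estimated counts did not follow depth. They were 0.88, 3.95 and 587 in the GFP libraries, 1.23, 392 and 390 with WT, 592, 390 and 393 with ΔGS, and 200, 783 and 391 with ΔADAM. With the best-fitting step of 196 counts, all 12 values lay within 2.15% of a step from a whole number of steps, with 3 libraries at 0 steps, 1 at 1, 5 at 2, 2 at 3 and 1 at 4. The deepest and the shallowest library, both GFP, were at 0 steps. The share of ADAM17-201 alone, which varied from 56.4% to 85.1%, carries this stepping. ADAM17-201 and ADAM17-203 together took between 83.3% and 92.5% in 11 libraries and 64.6% in the GFP library of experiment 1.

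APH1A was split into APH1A-202 (63.4%) and APH1A-203 (31.6%), whose coding sequences encode the same first 245 residues and differ in their ends. The last codons for shared residues and the ends are shown, with the codons after the last shared residue in capitals. They lie on the minus strand of chromosome 1 (chr1:150266525-150266554 for APH1A-202 and chr1:150266133-150266554, over an intron, for APH1A-203).
APH1A-202 coding end: agtattcagcgcagcctcttgtgtAAGGAC
APH1A-203 coding end: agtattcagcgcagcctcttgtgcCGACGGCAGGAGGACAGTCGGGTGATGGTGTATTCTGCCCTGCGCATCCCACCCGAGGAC
APH1A-202 thus ends 2 codons and APH1A-203 20 codons after the last shared residue. The share of APH1A-202, the shorter coding form, was 55.2%, 62.3% and 68.7% with GFP and between 60.7% and 66.9% with TYRO3. The range with TYRO3 lies within that of the 3 GFP libraries.

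PSENEN had no dominant transcript, with 43.9% in PSENEN-203, 40.9% in PSENEN-201 and 15.1% in PSENEN-202. The share of PSENEN-203 was 34.0%, 38.8% and 40.0% with GFP, 39.0%, 45.8% and 52.7% with WT, 47.2%, 51.9% and 40.5% with ΔGS, and 44.5%, 45.0% and 42.6% with ΔADAM. Of the 9 TYRO3 libraries only the WT library of experiment 1 overlapped with GFP. The mean was 37.6 ± 3.19% with GFP (SD, n = 3) and 45.5 ± 4.65% with TYRO3 (SD, n = 9), a difference of 7.82 percentage points (exact two-sided permutation test, p = 0.0182, adjusted p = 0.127 over the 7 genes). The smallest p that 3 against 9 libraries allow is 0.00909, and adjusted over 7 genes a lone share cannot go below 0.0636, or below 0.109 within experiments, so that a single share could not pass the threshold in this design. On TPM the difference was 8.06 points (adjusted p = 0.0636), and with labels permuted within experiments, the replicate block, the adjusted p was 0.328. The GFP library of experiment 1 had only 91 counts of PSENEN, and without it the difference was 6.02 points (adjusted p = 0.255).

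The leading transcripts of the other members took most of their gene, with 92.8% in NCSTN-201, 91.5% in APH1B-201 and 69.4% in PSEN2-202. PSEN2-201 took 13.2%. For these and the leading transcripts of ADAM10, ADAM17 and APH1A, the exact permutation test of the share gave adjusted p between 0.382 and 0.618, with differences between -3.30 points (ADAM10-202) and 5.20 points (ADAM17-201).

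**Figure D4:**
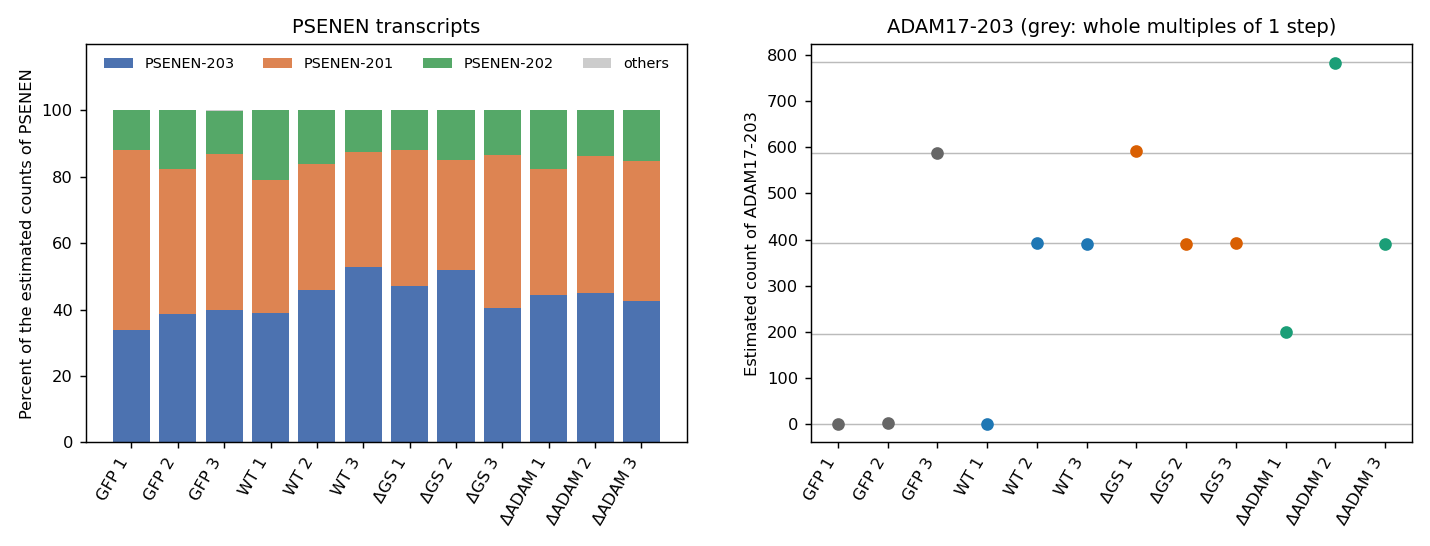
Left, percent of PSENEN counts assigned to each of its transcripts in each library (stacked bars, x axis by library). Right, estimated counts of ADAM17-203 in each library, with grey lines at whole multiples of 196 counts. The values sit on the lines whatever the group or depth, and the PSENEN-203 share is lowest in the GFP library of experiment 1.

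How the members varied together was described with log2 CPM centred within each experiment over the 12 libraries. The points share libraries, depth and the length trend above, and the coefficients are given as description only. ADAM17 and APH1A varied in opposite directions, with a Pearson r of -0.958 over 12 libraries and -0.948 without the ΔGS library of experiment 3. APH1A ranked near the very end among the 15412 genes in this respect, with 38 genes at a lower r to ADAM17. A wide range of genes did the same, since 25.2% of genes had an r to ADAM17 above 0.5 and 24.2% below -0.5. ADAM10 and NCSTN varied together (r = 0.833, and 0.691 without that library), and ADAM10 and PSENEN oppositely (r = -0.851 and -0.649). The 2 sheddases showed no common variation (r = 0.0154), and without the ΔGS library of experiment 3 their r was -0.494. The subunits of gamma-secretase did not vary as 1 group, as r was 0.0492 for NCSTN with APH1A, -0.782 for NCSTN with PSENEN and 0.668 for APH1A with PSEN2 (0.467, -0.575 and 0.656 without that library).

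The 2 genes with the pattern most like each member over the 12 libraries were TUT4 and FRMD6 for ADAM10 (r = 0.965 and 0.956), DCAF12 and VHL for ADAM17 (0.974 and 0.973), TMPO and AL512506.3 for NCSTN (0.967 and 0.963), and ATP6V0E1 and RAD9A for APH1A (0.985 and 0.977). They were XAGE1B and CLNS1A for PSENEN (0.968 and 0.963), TMEM183A and CD207 for PSEN2 (0.915 and 0.9), and UQCRHL and NLRP12 for APH1B (0.885 and 0.851). AL512506.3, CD207, UQCRHL and NLRP12 had mean levels of at most 0.503 TPM, so their likeness rests on few counts.

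The rest of the shedding pathway was examined in 7 lists, beside a share of 3.21% of all 15412 genes called over all TYRO3 groups. Of the other ADAM proteases, 6 of 7 were tested and 0 were called over all TYRO3 groups against GFP. The most abundant was ADAM15 with a median of 163 TPM, above ADAM10. The smallest adjusted p in this list were those of ADAM8 (log2 0.51, adjusted p = 0.153), ADAM9 (0.19, adjusted p = 0.319), another sheddase of growth factors, and ADAM33 (-0.57, adjusted p = 0.538). Their median log2 difference was 0.09, against 0.00 over all genes.

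Among the regulators of the sheddases, 14 of 16 were tested and 0 called, with a median log2 difference of -0.04. This list holds the TIMP inhibitors, the iRhoms RHBDF1 and RHBDF2 with FRMD8, which carry ADAM17 to the surface, the proprotein convertases FURIN and PCSK7, and the TspanC8 tetraspanins that carry ADAM10. TSPAN14, one of these tetraspanins, was 0.34 lower on the log2 scale (SE 0.07, adjusted p = 0.0271), TIMP1 0.46 higher (SE 0.11, adjusted p = 0.0329) and TIMP2 0.31 lower (SE 0.08, adjusted p = 0.0395). These 3 passed the adjusted p but not the 1.5-fold threshold, and without the GFP library of experiment 1 their adjusted p were 0.237, 0.216 and 0.334. TIMP3, the main inhibitor of ADAM17, had a log2 difference of -0.34 (SE 0.11, adjusted p = 0.0956).

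Of 6 genes for the assembly and modulation of gamma-secretase, all were tested and 0 called. IFITM3, an interferon-induced protein that binds gamma-secretase, had a log2 difference of 0.70 (SE 0.20, adjusted p = 0.0574), and it was called with the replicate block (0.68, adjusted p = 0.0117). The trafficking regulator TMED10 had -0.17 (adjusted p = 0.107) and the presenilin-binding UBQLN1 -0.21 (adjusted p = 0.139). Of 11 other sheddases and intramembrane proteases, all were tested and 0 called. The smallest adjusted p were those of the beta-secretases BACE2 (-0.24, adjusted p = 0.0651) and BACE1 (-0.22, adjusted p = 0.206) and of the membrane-type metalloprotease MMP16 (-0.60, adjusted p = 0.128), and MMP16 was called lower with the replicate block (-0.61, adjusted p = 0.00712).

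With the replicate block, which called 5.52% of all genes over all TYRO3 groups, IFITM3, MMP16 and NRARP of other lists were called. By edgeR with the batch term, which called 3.21%, only the substrates among these 7 lists held calls. Of the receptor tyrosine kinases known to be shed, 9 of 11 were tested, 1 was called higher and 1 lower, and these 2 are the TAM receptors related to TYRO3. MERTK was at 19.4, 18.8 and 22.1 CPM with GFP and between 6.58 and 17.1 CPM in the 9 TYRO3 libraries, which lie below GFP without overlap, and was 0.90 lower on the log2 scale (SE 0.17, adjusted p = 0.0175). It was also called lower with ΔADAM (-1.01, SE 0.21, adjusted p = 0.0476). AXL was at 86.2, 68.8 and 55.1 CPM with GFP and between 70.1 and 193 CPM with TYRO3, with overlap, and was 0.81 higher (SE 0.17, adjusted p = 0.0247). Without the GFP library of experiment 1 their log2 differences were -0.68 and 0.71 (adjusted p = 0.159 and 0.195), and without that of experiment 3 -0.93 and 0.77 (adjusted p = 0.0602 and 0.0917). Without the ΔADAM library of experiment 1 the adjusted p of AXL was 0.0531. By limma on log2 TPM the call of AXL was lost too (adjusted p = 0.0573 and 0.0539 with a pseudocount of 1 and 0.1). Both calls were lost by edgeR without the batch term (adjusted p = 0.0869 for MERTK and 0.146 for AXL) and in experiments 2 and 3 alone (0.306 and 0.418).

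Of 19 other substrates, 17 were tested and 1 was called, NRG1, a neuregulin ligand that ADAM17 and ADAM10 release. It was at 13.9, 14.5 and 17.2 CPM with GFP and between 18.2 and 38.2 CPM with TYRO3, without overlap, and was 0.75 higher on the log2 scale (SE 0.18, adjusted p = 0.0337). The call was lost without any 1 of 7 libraries, namely any GFP library, the ΔADAM library of experiment 3 or any TYRO3 library of experiment 1, with adjusted p between 0.0512 and 0.211. It was also lost by limma on log2 TPM (0.101 and 0.0964), by edgeR without the batch term (0.0946) and in experiments 2 and 3 alone (0.445). NGFR, the p75 neurotrophin receptor, had a log2 difference of 1.14 (SE 0.38, adjusted p = 0.1) and was called higher with the replicate block (1.20, adjusted p = 0.0036), by DESeq2 and without a filter on low counts. Of 7 Notch target genes, a readout of gamma-secretase acting on Notch, 5 were tested and 0 called. NRARP had 0.92 (SE 0.25, adjusted p = 0.0502), HES4 0.64 (adjusted p = 0.16) and HEY2 -0.49 (adjusted p = 0.195), and NRARP, just above the threshold, was called higher with the replicate block (0.91, adjusted p = 0.00886), by DESeq2 and by limma.

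**Figure D5:**
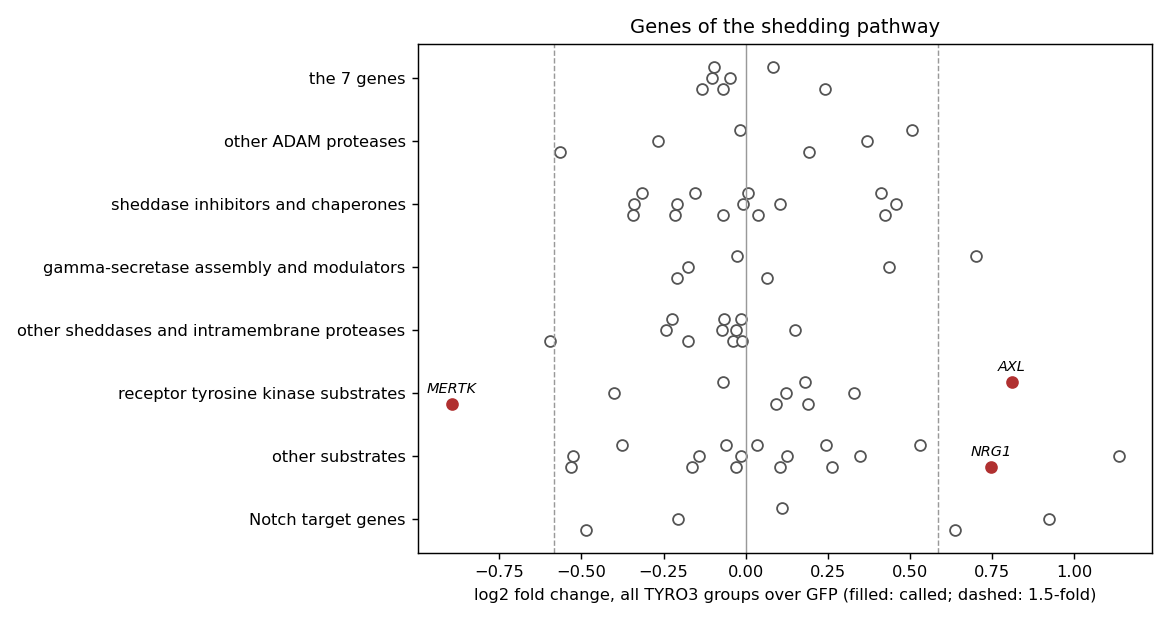
Log2 fold change over all TYRO3 groups against GFP (x axis) of every tested gene in each list, 1 point per gene, filled where called, with dashed lines at 1.5-fold. The 7 genes lie between -0.13 and 0.24, and the 3 filled points are MERTK, AXL and NRG1.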

How the data were processed

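RNA of 12 libraries was sequenced with the TruSeq Stranded mRNA kit. Per the labels, the authors used bcl2fastq, FastQC 0.11.9, Trimmomatic 0.33 and kallisto 0.46.0 on GRCh38. The deposited values are estimated counts and TPM per transcript, before the study's batch correction and library size normalization. The deposited expected counts and TPM were summed per gene by GENCODE 29 symbol, matched by transcript identifier without version; 18956 of 188753 transcripts did not match, and matched ones held 97.4% to 97.5% of counts.

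Rounded counts were tested by quasi-likelihood in edgeR 4.0.16 (R 4.3.3; TMM; filterByExpr with a minimum of 10 and a total of 15) across all 15412 genes passing, or 75827 transcripts, in a model of 4 groups plus a batch term that sets experiment 1 apart from the other two, which the study treats as a batch. A call needed a fold over 1.5 and a Benjamini-Hochberg adjusted p of at most 0.05. The fit was tested on simulated data. P-values measure the spread between 3 experiments per group; no source says more on their independence. Libraries of the same experiment share a number in the labels, so the numbers pair the samples. Deviations from group means correlated with a median r of 0.212 (lowest -0.0204) over 18 pairs of the same number. The median of -0.102 between other numbers is no separate support, as deviations from a group mean sum to 0. The GFP library of experiment 1 had r of 0.0181 with WT, 0.0242 with ΔGS and -0.0204 with ΔADAM of that experiment. Shares of transcripts were tested with exact permutation tests. Alternatives were other size factors, DESeq2 1.42.0, limma 3.58.1 on log2 TPM (pseudocount 1 or 0.1), other filters, no batch term, a replicate block, experiments 2 and 3 alone, only the groups compared and each library left out.

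The members and gene lists were chosen with earlier results of these data known. Named were the 7 members, their transcripts with at least 10% of counts, TYRO3, list genes called or else the 3 with the smallest adjusted p over all TYRO3 groups, and 2 genes most like each member; TIMP3, ADAM15 and the genes called with the replicate block were added after their values were seen. Further, 1 blood cell marker is not reported here.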

Additional observations from a re-analysis of the deposited data

How the results depend on the processing

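In each of 65 alternatives for a comparison, 0 of the 7 genes were called, and the replicate block changed no call of a member (ADAM17 over all TYRO3 groups, adjusted p = 0.126). Beside the fits without 1 library, 390 of 413 alternative log2 fold changes of the members kept their direction and 23 reversed, all of differences that did not pass the test. Why they reversed was not tested. On log2 TPM with limma and a pseudocount of 1 or 0.1, NCSTN became 0.08127 and 0.08171 over all TYRO3 groups, 0.09104 and 0.09155 with ΔADAM and 0.01985 and 0.01992 with ΔGS, and PSEN2 became 0.01055 and 0.01064 with WT. In WT against both variants ADAM17 then became 0.03607 and 0.03712 and APH1A 0.04517 and 0.04539. In experiments 2 and 3 alone ADAM10 became 0.08394 with WT, APH1A 0.006663 in WT against both variants, and APH1B -0.1016 with ΔADAM, 0.01238 with ΔGS and 0.114 in ΔGS against ΔADAM. APH1B with ΔADAM became -0.007477 without the batch term and -0.001879 with only the groups compared, where APH1B with ΔGS became 0.007019. PSEN2 in WT against both variants became -2.372e-05 with the size factors of DESeq2, -0.002241 without a filter and -0.001425 with only the groups compared. As a share of TPM the difference of ADAM10-202 became 1.8 points. By CPM in place of TPM, NCSTN ranked 1, APH1A 2, ADAM17 4, PSEN2 5 and PSENEN 6.

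Leaving out 1 library in turn, the log2 fold change ran from -0.1199 to 0.05297 for ADAM10, from -0.3936 to 0.1125 for APH1B, from -0.05268 to 0.0512 for NCSTN and from -0.1431 to 0.0463 for PSENEN with WT. With ΔGS it ran from -0.3043 to 0.2981 for APH1B, -0.1393 to 0.0003067 for NCSTN, -0.07922 to 0.03974 for PSEN2 and -0.007857 to 0.3525 for PSENEN, and with ΔADAM from -0.1723 to 0.327 for APH1B and -0.01837 to 0.1716 for PSENEN. Over all TYRO3 groups it ran from -0.2585 to 0.2459 for APH1B and -0.0131 to 0.1774 for PSENEN. In WT against both variants the range was -0.09127 to 0.01573 for ADAM17, -0.03901 to 0.04697 for APH1A and -0.04545 to 0.0621 for PSEN2. In ΔGS against ΔADAM it was -0.1716 to 0.08049 for ADAM10, -0.003634 to 0.1666 for APH1A, -0.3023 to 0.1305 for APH1B, -0.07417 to 0.06387 for NCSTN and -0.0794 to 0.27 for PSENEN. The share of APH1A-202 differed by -2.438 to 4.316 points.

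Counts of calls over all genes moved with the processing, while a count of 0 among 7 genes has little room to move. Over all TYRO3 groups, 495 calls became 752 by DESeq2, 933 without a filter, 850 with the replicate block, 19 without the batch term, 1 in experiments 2 and 3 alone and between 1 and 610 without 1 library, with 1 call without the GFP library of experiment 1. The ranges over all alternatives were 1 to 562 with WT, 1 to 765 with ΔGS and 1 to 879 with ΔADAM. Without a filter, 6 genes were called in WT against both variants and 5 in ΔGS against ΔADAM. Per transcript, 4 calls became 37 with at least 10 counts in every library and 7 with the replicate block, without a member among them. The shallow GFP library of experiment 1 held 17 counts of APH1B and 91 of PSENEN.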
